A study of Mus musculus with 4 samples.

Results

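Initial lymphatic capillary endothelium was represented by 79 of the 24046 cell barcodes deposited for dissected mouse lymphatic vessels and their surrounding tissue. The barcodes were chosen by their own counts of unique molecular identifiers (UMIs, each standing for a captured RNA molecule): at least 500 UMIs over at least 300 genes, under 15% of UMIs from mitochondrial genes, at least 1 UMI of Prox1, 2 of Lyve1, 2 of Ccl21a and 1 of Mmrn1, and no more than 1 of Ptprc, the pan-leukocyte gene. These 79 barcodes, called the initial set, made up 0.334% of the 23666 barcodes that passed the filters on depth, gene number and mitochondrial share, and 14.0% of the 564 filtered barcodes with Prox1 and Mmrn1, of which 54 met neither lymphatic rule. They were set beside 431 lymphatic barcodes with at least 1 UMI of Prox1 and 1 of Mmrn1 but none of Lyve1 (the Lyve1-negative set), beside 284 barcodes with blood-type endothelial counts (Cdh5 at 2 or more and Pecam1 at 1 or more, with no Prox1, no Mmrn1 and no more than 1 of Ptprc, called the blood-type set), and beside the 23156 filtered barcodes in neither lymphatic set. Counts of Prox1, Lyve1, Ccl21a, Mmrn1, Ptprc, Cdh5 and Pecam1 placed barcodes in these sets, so differences in those genes are not independent of the rules. Prox1 and Mmrn1 had the same threshold in both lymphatic sets, so the rules alone do not fix their differences there. Every other gene comes from the same barcodes, so all values are a description of them.

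The cells came from 4 male and 4 female wild-type C57BL/6J mice aged 12–14 weeks, with no genotype or treatment difference between animals. From each mouse, vessels of 4 regions (the popliteal afferent or saphenous, inguinal axillary, mesenteric and superficial cervical vessels) were put together and dissociated with papain, then papain with collagenase A and dispase II. Cells of each mouse were tagged with a multiplexing oligonucleotide and pooled by sex for droplet capture. The matrix used here holds all animals with no map of barcodes to mouse, sex or region, so the whole is 1 pooled sample: differences between sets are given with counting error only, and there is no replicate, test or p-value.

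Initial lymphatics are the blind-ended capillaries through which interstitial fluid, macromolecules and immune cells enter the lymphatic tree, before collecting vessels with smooth muscle and valves propel the lymph onward. Their endothelial cells are known for discontinuous button junctions, a sparse basement membrane with anchoring filaments, the hyaluronan receptor LYVE1 on their surface and secretion of the chemokine CCL21, which draws CCR7-bearing dendritic cells into the vessel. Endothelium of collecting vessels keeps the master regulator PROX1 but has little LYVE1.

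The matrix held 32285 genes and 232753017 gene UMIs, with a median of 8684.5 UMIs per barcode. Members had a median of 10294 UMIs (2037 to 74002) and Lyve1-negative barcodes a median of 10484, so depth was close. Summed over barcodes, the initial set held 1239097 UMIs and the Lyve1-negative set 7252793. Levels are given in CPM, a gene's UMIs scaled to the UMI sum of its set, with exact Poisson 95% intervals. Ratios have exact intervals from the binomial conditional on their sum, and shares of barcodes have Clopper-Pearson intervals. All of these cover counting error only. A sum of 0 UMIs allows up to 3 UMIs, or 2.42 CPM in the initial set and 0.414 CPM in the Lyve1-negative set. Barcodes carried 1 of 8 numeric suffixes that no label ties to a mouse or sex. Of the barcode sequences, 44 occurred in both suffixes 1 to 4 and suffixes 5 to 8, none of them a member's. Members per suffix numbered 4 to 28 with a median of 8, and suffix 8 held the 28. Genes are described as past 3-fold where their level was at least 20 CPM in either set and the ratio was at least 3 in either direction.

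Some barcodes carried RNA of another cell class. Barcodes with at least 20 UMIs per 10000 summed over markers of fibroblasts, macrophages, muscle or pericytes, epithelium or mesothelium, lymphocytes or blood endothelium are called mixed barcodes. They were 15 of the 79 members (19.0%), of which 12 were led by fibroblast, 2 by macrophage and 1 by epithelial or mesothelial markers, and 35 of the 431 Lyve1-negative barcodes (8.12%). Macrophage markers reached that level in 5 members, 3 of them led by fibroblast markers. Mixed members had a median of 21742 UMIs and the others 8700, and a doublet caller marked 8 of the 15 mixed members and 1 of the other 64. Together the mixed members held 406991 of the 1239097 UMIs of the initial set, so they weigh more in CPM than in the number of members. Each gene ratio below is therefore accompanied by its value without mixed barcodes where that value differs by more than 1.5 times or is no longer past 3-fold. Levels, marker sums and shares include mixed barcodes unless stated. The part mixed barcodes play in a result was not tested.

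Prox1, Lyve1, Ccl21a and Mmrn1 were present in every member by rule, so their presence is no test of what these cells are. Lyve1 was at 3554 CPM (3450.0 to 3661) in initial lymphatic barcodes, against 0 by rule in Lyve1-negative barcodes. Ccl21a was at 8195 CPM (8036 to 8356) in initial lymphatic barcodes, against 33.0 CPM (28.9 to 37.4) in Lyve1-negative barcodes. Reln, the secreted glycoprotein reelin that the rule did not read, stood at 1726 CPM (1653 to 1800.2) in initial lymphatic barcodes, against 47.6 CPM (42.7 to 52.9) in Lyve1-negative barcodes, 36.3-fold higher (32.4 to 40.8). Reln ran from 809 to 2386 CPM (median 1878) over the suffixes in the initial set and from 10.0 to 99.0 CPM (median 39.9) in the Lyve1-negative set. Reln was higher in the initial set in 8 of 8 suffixes, and the ranges did not overlap. Reln UMIs were present in 78 of the 79 members. Mmrn1, multimerin 1, was at 2333 CPM (2249 to 2419.8) in initial lymphatic barcodes, against 664 CPM (646 to 683) in Lyve1-negative barcodes. Prox1 itself was at 784 CPM (736 to 835) in initial lymphatic barcodes, against 1029 CPM (1006 to 1052) in Lyve1-negative barcodes. Pan-endothelial genes were present in the initial set, with Cldn5 at 1008 CPM, Egfl7 at 553 CPM, Cdh5 at 322 CPM and Pecam1 at 319.6 CPM. Markers of T, NK and innate lymphoid cells summed to 347 CPM (172 to 543 over suffixes) in the initial set and 167 CPM in the Lyve1-negative set, most of it Thy1 at 291 CPM in the initial set and 159.9 CPM in the Lyve1-negative set. In that list Gata3 was past 3-fold higher, at 49.2 CPM in the initial set and 0.965 CPM in the Lyve1-negative set, and had no UMI in the initial set without mixed barcodes, while the T-cell genes Cd3e, Cd3d, Cd3g and Trac had none in any member. B-cell markers summed to 23.4 CPM in the initial set and 44.4 CPM in the Lyve1-negative set, with 21 UMIs of Ighm, 7 of Igkc and 1 of Cd79a in members and none of Cd79b or Ms4a1. Without mixed barcodes the B-cell sums were 9.61 and 46.9 CPM in that order. Markers of lymph node sinus endothelium summed to 877 CPM (444 to 1093 over suffixes) in the initial set and 1742 CPM in the Lyve1-negative set, and of the 12 genes in that list Marco, Madcam1 and Tnfsf11 had no UMI in members.

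**Figure D1:**
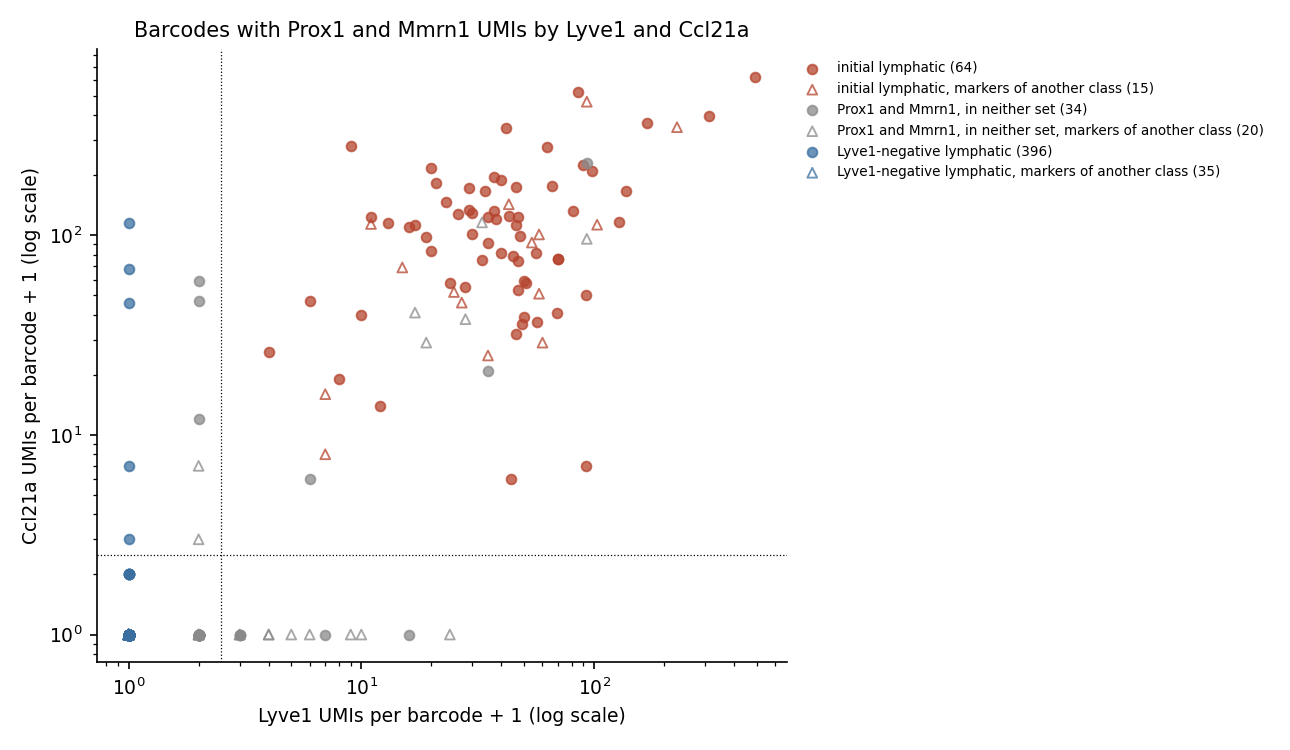
Ccl21a UMIs against Lyve1 UMIs, each plus 1 on log axes, for the 564 barcodes with at least 1 UMI of Prox1 and of Mmrn1; dotted lines mark the thresholds of 2 UMIs. Filled circles are barcodes without markers of another cell class and open triangles are mixed barcodes, with 64 and 15 in the initial set, 34 and 20 in neither set, and 396 and 35 in the Lyve1-negative set.

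At the edges of the rule, members held 3 to 491 Lyve1 UMIs (median 42) and 5 to 619 Ccl21a UMIs (median 100), so none sat at the threshold of 2 for either gene. Prox1 ran from 1 to 82 UMIs (median 7) and Mmrn1 from 2 to 194 (median 29). With 1 Prox1 UMI each, 9 members sat at that threshold, and 11 members had the 1 Ptprc UMI the rule allows. Just outside, 10 barcodes failed on Lyve1 alone and held 2 to 114 Ccl21a UMIs (median 28) and 0 to 38 Reln UMIs. Another 6 failed on Ccl21a alone, with 2 to 6 Lyve1 UMIs and 0 to 5 of Reln. A further 8 failed on Ptprc alone, with 2 to 10 Ptprc UMIs and 3 to 91 of Reln, and none failed on Prox1 or Mmrn1 alone. In the Lyve1-negative set, 421 of 431 barcodes had no Ccl21a UMI.

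The sequence just upstream of 4 genes is shown because these genes carry the contrast between the sets: Ccl21a, Reln and Ackr2 stood higher in initial lymphatic barcodes, and Ptgs1 lower. The windows are RefSeq's, on GRCm38.p6, up to 250 bases before the gene's start, 5′ to 3′ on the gene's strand. They lie at chr4:42773994-42774241 (minus strand, Ccl21a), chr5:22344706-22344955 (minus strand, Reln), chr9:121898105-121898354 (plus strand, Ackr2) and chr2:36230176-36230425 (plus strand, Ptgs1). Capitals mark a match to the ETS motif CCGGAAG on either strand, the core bound by ETS factors such as ERG that endothelial cells express.
Ccl21a: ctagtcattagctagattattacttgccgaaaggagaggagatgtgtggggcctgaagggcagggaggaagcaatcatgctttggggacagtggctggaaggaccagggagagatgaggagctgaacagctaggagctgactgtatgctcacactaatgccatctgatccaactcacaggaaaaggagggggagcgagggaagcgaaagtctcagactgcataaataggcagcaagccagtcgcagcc
Reln: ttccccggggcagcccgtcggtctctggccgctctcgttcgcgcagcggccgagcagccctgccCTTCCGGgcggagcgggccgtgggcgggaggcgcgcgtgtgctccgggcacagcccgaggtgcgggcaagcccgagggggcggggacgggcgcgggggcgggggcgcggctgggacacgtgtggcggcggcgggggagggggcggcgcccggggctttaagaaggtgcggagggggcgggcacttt
Ackr2: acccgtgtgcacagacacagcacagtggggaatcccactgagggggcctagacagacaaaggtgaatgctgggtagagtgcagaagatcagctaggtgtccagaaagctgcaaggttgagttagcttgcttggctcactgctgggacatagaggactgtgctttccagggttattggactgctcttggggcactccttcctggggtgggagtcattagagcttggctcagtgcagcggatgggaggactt
Ptgs1: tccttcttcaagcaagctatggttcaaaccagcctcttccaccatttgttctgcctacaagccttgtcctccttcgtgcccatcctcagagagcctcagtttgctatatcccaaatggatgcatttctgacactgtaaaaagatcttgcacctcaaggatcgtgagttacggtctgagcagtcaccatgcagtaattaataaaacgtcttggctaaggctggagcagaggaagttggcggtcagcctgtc
The Reln window was 80.0% G or C with 37 CpG dinucleotides, against medians of 52.4% and 6 over 32851 windows of the table. The Ccl21a, Ackr2 and Ptgs1 windows held 52.8%, 55.2% and 48.0% G or C and 4, 2 and 5 CpGs. Searched on both strands, CCGGAAG occurred in the Reln window and in 6.91% of all windows. None of these 4 windows held the GATA-factor motif AGATAA, which 9.99% of all windows hold, the forkhead motif TGTTTAC (3.17%), the SOX motif AACAATG (3.29%), the TATA-box letters TATAAA (12.4%) or the NR2F motif AGGTCA (14.0%). This says only that those letters are not in these stretches. The window of Lyve1 is not used here.

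Against the Lyve1-negative lymphatic barcodes, the question was what else separates capillary from Lyve1-negative lymphatic endothelium in the same dissections. Of 7216 genes at 20 CPM or more in either set, 302 (4.19%) stood at least 3-fold higher and 212 (2.94%) at least 3-fold lower in the initial set, with a median log2 ratio of 0.06 over all genes. The shares of 4.19% and 2.94% are the background for each list count below that compares these sets with all barcodes. Without mixed barcodes the numbers were 253 higher and 280 lower of 6991, of which 189 and 184 were past 3-fold with all barcodes too. Those 253 and 280 of 6991 are the background for list counts without mixed barcodes, where lower genes outnumber higher ones. Reln, the sodium-channel gene Scn3a, the guanylate cyclase genes Gucy1a1 and Gucy1b1 and the chemokine scavenger Ackr2 were among those higher. Another chemokine scavenger, Ackr4, was among those lower. Prostanoid, anticoagulant, fatty-acid binding and class I antigen presentation genes were among those lower.

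**Figure D2:**
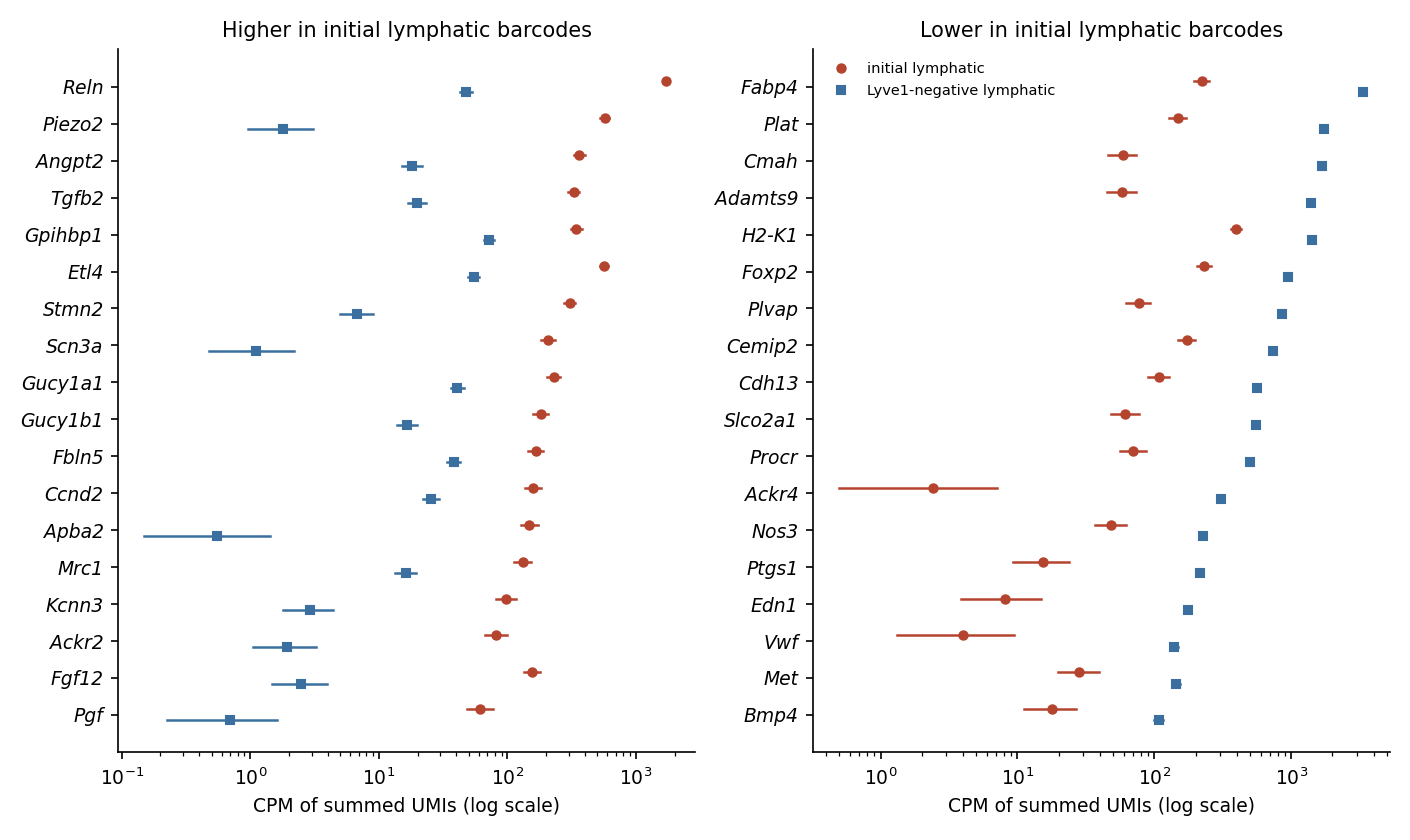
Level of 36 genes in CPM on a log axis, with exact Poisson 95% intervals, in initial lymphatic barcodes (circles) and Lyve1-negative lymphatic barcodes (squares), with 18 genes that stood higher and 18 that stood lower in the initial set. Reln stands at 1726 CPM in initial lymphatic barcodes and 47.6 CPM in Lyve1-negative barcodes, while Fabp4 stands at 221 CPM and 3334 CPM in the same order.

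Among regulators and receptors of lymphatic identity, most genes were under 3-fold, as were most of the 7216 genes compared. Of all those genes, 4.19% stood past 3-fold higher and 2.94% lower. In the identity list 15 of 16 genes reached 20 CPM, of which 2 stood at least 3-fold higher and 1 at least 3-fold lower (2 and 0 of 15 without mixed barcodes), and the median log2 ratio was 0.18 (0.42 without mixed barcodes). Past 3-fold higher were Mmrn1, which the rule read, and Pdpn, podoplanin, the mucin-type glycoprotein that marks lymphatic endothelium. Pdpn was at 164 CPM (142 to 188) in initial lymphatic barcodes, against 44.7 CPM (39.9 to 49.8) in Lyve1-negative barcodes, 3.67-fold higher (3.06 to 4.38). Flt4, the receptor for VEGF-C, was at 569.8 CPM in the initial set and 351 CPM in the Lyve1-negative set, 1.62-fold higher (1.49 to 1.76). Gata2, a zinc-finger transcription factor, was at 37.1 CPM in the initial set and 113 CPM in the Lyve1-negative set, 3.04-fold lower (2.26 to 4.18). Flt4 stood higher in the initial set in 7 of 8 suffixes. Gata2 was under 3-fold without suffix 1, 2, 4 or 5, at 2.89- to 2.97-fold lower. Without mixed barcodes, Gata2 was 2.65-fold lower.

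Genes of valves and collecting vessels stood lower more often than higher when all barcodes were counted, and equally often without mixed barcodes. The list held 21 genes, and 19 reached 20 CPM, of which 2 stood at least 3-fold higher and 4 at least 3-fold lower (1 and 1 of 19 without mixed barcodes), and the median log2 ratio was -0.68 (-0.47 without mixed barcodes). Foxp2, a forkhead transcription factor, was at 230.0 CPM (204 to 258) in initial lymphatic barcodes, against 945 CPM (923 to 968) in Lyve1-negative barcodes, 4.11-fold lower (3.65 to 4.64). Foxp2 ran from 71.0 to 533 CPM (median 151) over the suffixes in the initial set and from 857 to 1055 CPM (median 922) in the Lyve1-negative set. Foxp2 was lower in the initial set in 8 of 8 suffixes, and the ranges did not overlap. Foxc2, the forkhead factor needed for valve formation, was at 38.7 CPM in the initial set and 116 CPM in the Lyve1-negative set, 3.00-fold lower (2.25 to 4.11). Cyyr1 was at 457 CPM in the initial set and 1391 CPM in the Lyve1-negative set, 3.05-fold lower (2.80 to 3.32). Neo1, the receptor neogenin, was at 50.04 CPM in the initial set and 10.9 CPM in the Lyve1-negative set, 4.59-fold higher (3.24 to 6.49). Neo1 stood higher in the initial set in 3 of 8 suffixes. Several of these calls rest on the choice of barcodes. Foxc2 was under 3-fold without suffix 1, 2, 4, 6 or 7, at 2.82- to 2.94-fold lower. Cyyr1 was under 3-fold without suffix 1, 3, 4, 6 or 8, at 2.80- to 2.97-fold lower. Without mixed barcodes, Foxc2 was 2.64-fold lower, Cyyr1 2.43-fold lower and Neo1 2.86-fold higher. Without suffix 4, Neo1 was 8.42-fold higher.

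Growth-factor systems of vessels were divided. Among its 27 genes, 16 reached 20 CPM, of which 2 stood at least 3-fold higher and 3 at least 3-fold lower (2 and 3 of 15 without mixed barcodes), and the median log2 ratio was -0.12 (-0.17 without mixed barcodes). Angpt2, the angiopoietin that acts on the TIE2 receptor and is needed for lymphatic maturation, stood at 363 CPM (330.4 to 398) in initial lymphatic barcodes, against 18.2 CPM (15.2 to 21.6) in Lyve1-negative barcodes, 19.95-fold higher (16.4 to 24.4). Angpt2 ran from 16.4 to 736 CPM (median 258) over the suffixes in the initial set and from 5.49 to 25.6 CPM (median 17.95) in the Lyve1-negative set. Angpt2 was higher in the initial set in 7 of 8 suffixes, and the ranges overlapped. Pgf, placental growth factor, a ligand of VEGF receptor 1, was at 61.3 CPM in the initial set and 0.689 CPM in the Lyve1-negative set, 89.0-fold higher (36.5 to 282). Flt1, that receptor, was at 2.42 CPM (0.499 to 7.08, 3 UMIs) in the initial set and 43.6 CPM (38.9 to 48.6) in the Lyve1-negative set. Met, the receptor of hepatocyte growth factor, was at 28.2 CPM in the initial set and 145 CPM in the Lyve1-negative set, 5.12-fold lower (3.66 to 7.39), and its ligand Hgf was at 11.3 CPM in the initial set and 51.8 CPM in the Lyve1-negative set, 4.59-fold lower (2.70 to 8.47). Pgf stood higher in the initial set in 7 of 8 suffixes. Hgf stood lower in the initial set in 7 of 8 suffixes. Without suffix 2, Hgf was 7.95-fold lower. Without suffix 7, Hgf was 3.01-fold lower. Without suffix 8, Angpt2 was 13.04-fold higher.

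In the BMP and TGF-beta list, a single ligand stood past 3-fold higher, where 4.19% of all genes did. Of the list's 26 genes, 18 reached 20 CPM, of which 1 stood at least 3-fold higher and 1 at least 3-fold lower (1 and 6 of 19 without mixed barcodes), and the median log2 ratio was -0.35 (-0.32 without mixed barcodes). Tgfb2, the ligand TGF-beta 2 (ENSMUSG00000039239, protein-coding, chromosome 1, 186622792 to 186705989 on GRCm38, minus strand), was at 329 CPM (298 to 363) in initial lymphatic barcodes, against 19.9 CPM (16.7 to 23.4) in Lyve1-negative barcodes, 16.6-fold higher (13.7 to 20.2). Tgfb2 ran from 73.8 to 747 CPM (median 235) over the suffixes in the initial set and from 15.1 to 27.7 CPM (median 19.0) in the Lyve1-negative set. Tgfb2 was higher in the initial set in 8 of 8 suffixes, and the ranges did not overlap. Bmp4, a bone morphogenetic protein, was at 17.8 CPM in the initial set and 108 CPM in the Lyve1-negative set, 6.06-fold lower (3.97 to 9.72). In the Notch list, Dll1, a Notch ligand, was the gene past 3-fold, at 21.8 CPM in the initial set and 90.0 CPM in the Lyve1-negative set, 4.13-fold lower (2.81 to 6.32). Here 9 of 16 genes reached 20 CPM, of which 0 stood at least 3-fold higher and 1 at least 3-fold lower (0 and 1 of 9 without mixed barcodes), and the median log2 ratio was 0.52 (0.00 without mixed barcodes). Of all genes, 4.19% stood past 3-fold higher and 2.94% lower.

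Guidance genes, which encode secreted and membrane cues first described in axons, included 4 that stood higher. The list held 35 genes, and 24 reached 20 CPM, of which 4 stood at least 3-fold higher and 0 at least 3-fold lower (2 and 1 of 21 without mixed barcodes), and the median log2 ratio was -0.11 (-0.37 without mixed barcodes). Reln (ENSMUSG00000042453, protein-coding, chromosome 5, 21884454 to 22344702 on GRCm38, minus strand) is described above. Efna5, the membrane-bound ligand ephrin A5, was at 67.8 CPM in the initial set and 13.9 CPM in the Lyve1-negative set, 4.87-fold higher (3.60 to 6.57). Sema3c was at 83.1 CPM in the initial set and 20.1 CPM in the Lyve1-negative set, 4.13-fold higher (3.18 to 5.35), and Sema3e at 24.2 CPM in the initial set and 1.65 CPM in the Lyve1-negative set, and both class 3 semaphorins depended on mixed barcodes. Sema3e had no UMI in the initial set once these were left out. Sema3c stood higher in the initial set in 6 of 8 suffixes. Without mixed barcodes, Efna5 was 9.80-fold higher and Sema3c 2.61-fold lower (0.853 to 13.002). Without suffix 3, Sema3c was 2.82-fold higher. Sema3d and Sema3a, also secreted class 3 semaphorins, were lower without reaching 3-fold. Sema3d was at 552 CPM in the initial set and 1423 CPM in the Lyve1-negative set, 2.58-fold lower (2.39 to 2.79). Sema3a was at 229 CPM in the initial set and 677 CPM in the Lyve1-negative set, 2.95-fold lower (2.62 to 3.34).

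Chemokines and their scavenger receptors showed opposite members of the atypical receptor family on either side. Among its 43 genes, 30 reached 20 CPM, of which 6 stood at least 3-fold higher and 3 at least 3-fold lower (4 and 6 of 28 without mixed barcodes), and the median log2 ratio was 0.15 (-0.59 without mixed barcodes). Of those higher, Ccl21a was fixed by the rule. Ackr2, the scavenger of inflammatory CC chemokines (ENSMUSG00000044534, protein-coding, chromosome 9, 121898355 to 121911074 on GRCm38, plus strand), was at 81.5 CPM (66.4 to 99.0) in initial lymphatic barcodes, against 1.93 CPM (1.06 to 3.24) in Lyve1-negative barcodes, 42.2-fold higher (24.0 to 80.0). Ackr2 ran from 6.04 to 157 CPM (median 83.5) over the suffixes in the initial set and from 0 to 3.92 CPM (median 1.41) in the Lyve1-negative set. Ackr2 was higher in the initial set in 8 of 8 suffixes, and the ranges did not overlap. Ackr4, the scavenger of CCL19 and CCL21 (ENSMUSG00000079355, protein-coding, chromosome 9, 104084157 to 104126933 on GRCm38, minus strand), was at 2.42 CPM (0.499 to 7.08, 3 UMIs) in initial lymphatic barcodes, against 305 CPM (293 to 318) in Lyve1-negative barcodes, 126-fold lower (43.1 to 612). Ackr4 ran from 0 to 10.2 CPM (median 0) over the suffixes in the initial set and from 166 to 485 CPM (median 299) in the Lyve1-negative set. Ackr4 was lower in the initial set in 8 of 8 suffixes, and the ranges did not overlap. Without suffix 8, the initial set held 1 Ackr4 UMI.

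Il7, the cytokine that maintains T cells and innate lymphocytes, was at 148 CPM in the initial set and 47.2 CPM in the Lyve1-negative set, 3.15-fold higher (2.62 to 3.78). Mrc1, the mannose receptor, which macrophages also carry, was at 132 CPM in the initial set and 16.3 CPM in the Lyve1-negative set, 8.09-fold higher (6.34 to 10.3). Ccl2, a monocyte attractant, was at 334 CPM in the initial set and 88.8 CPM in the Lyve1-negative set, 3.76-fold higher (3.32 to 4.26), and Cxcl10, an interferon-induced chemokine, at 71.8 CPM in the initial set and 12.8 CPM in the Lyve1-negative set, 5.601-fold higher (4.14 to 7.57). Il7 and Ccl2 stood higher in the initial set in 7 of 8 suffixes. Cxcl10 stood higher in the initial set in 6 of 8 suffixes. Il7 was under 3-fold without suffix 1, 6 or 8, at 2.94- to 2.98-fold higher. Without mixed barcodes, Ccl2 was 1.94-fold higher and Cxcl10 5.05-fold lower (0.856 to 204). Without suffix 3, Cxcl10 was 3.51-fold higher. Without suffix 6, Cxcl10 was 13.1-fold higher. Without suffix 7, Ccl2 was 2.00-fold higher. The selectins, which tether leukocytes on activated blood endothelium, were near absent in the initial set, where Sele stood at 1.61 CPM (0.195 to 5.83, 2 UMIs), against 145 CPM (137 to 155) in the Lyve1-negative set. Ccl21a (ENSMUSG00000094686, protein-coding, chromosome 4, 42772860 to 42773993 on GRCm38, minus strand) has near-identical copies, and reads could be split among them: a second gene model of that name had 4 UMIs in members, and 4 models of Ccl21b and Ccl21c had no UMI in any barcode.

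**Figure D3:**
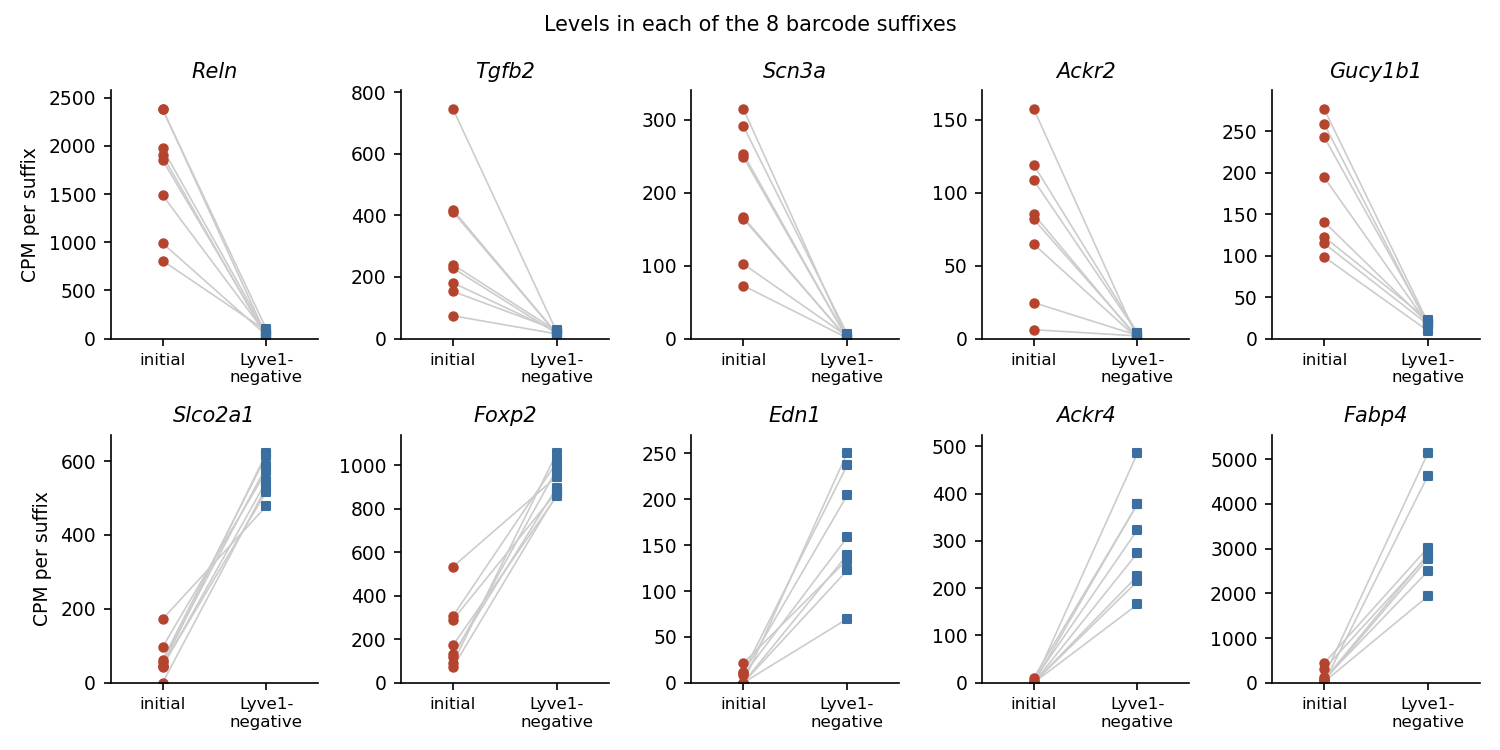
Level in each of the 8 barcode suffixes, in CPM on a linear axis, of 5 genes higher in initial lymphatic barcodes (Reln, Tgfb2, Scn3a, Ackr2, Gucy1b1) and 5 lower (Slco2a1, Foxp2, Edn1, Ackr4, Fabp4). Each line joins the initial value (left) to the Lyve1-negative value (right) of a suffix. Reln ran from 809 to 2386 CPM in initial lymphatic barcodes, above every Lyve1-negative value.

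Hyaluronan and junction genes past 3-fold stood lower, apart from Lyve1 itself. Of the list's 13 genes, 8 reached 20 CPM, of which 1 stood at least 3-fold higher and 1 at least 3-fold lower (1 and 2 of 6 without mixed barcodes), and the median log2 ratio was 0.76 (-0.35 without mixed barcodes). The gene counted as higher was Lyve1, which the rule fixed. Cemip2, a transmembrane hyaluronan-degrading enzyme, was at 172 CPM in the initial set and 736 CPM in the Lyve1-negative set, 4.28-fold lower (3.74 to 4.94). Of the junction and adhesion list, none stood past 3-fold higher, where 4.19% of all genes did. Here 25 of 30 genes reached 20 CPM, of which 0 stood at least 3-fold higher and 3 at least 3-fold lower (0 and 4 of 25 without mixed barcodes), and the median log2 ratio was -0.27 (-0.29 without mixed barcodes). Esam, an endothelial adhesion molecule of tight junctions, was at 25.8 CPM in the initial set and 96.8 CPM in the Lyve1-negative set, 3.75-fold lower (2.63 to 5.52). Cdh13, T-cadherin, was at 107 CPM in the initial set and 563 CPM in the Lyve1-negative set, 5.25-fold lower (4.41 to 6.28), and Rapgef3, the cyclic AMP sensor EPAC1, at 8.07 CPM in the initial set and 48.1 CPM in the Lyve1-negative set, 5.96-fold lower (3.20 to 12.5). Pecam1, the platelet-endothelial adhesion molecule, was at 319.6 CPM in the initial set and 865 CPM in the Lyve1-negative set, 2.71-fold lower (2.44 to 3.00), and Cdh5, VE-cadherin, at 322 CPM in the initial set and 456 CPM in the Lyve1-negative set, 1.41-fold lower (1.27 to 1.57). Rapgef3 stood lower in the initial set in 7 of 8 suffixes. Without suffix 3, Rapgef3 was 9.60-fold lower.

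Matrix and anchoring genes differed in both directions. The list held 41 genes, and 33 reached 20 CPM, of which 4 stood at least 3-fold higher and 3 at least 3-fold lower (6 and 4 of 31 without mixed barcodes), and the median log2 ratio was 0.32 (0.25 without mixed barcodes). Fbln5, an elastic-fibre protein, was at 166 CPM in the initial set and 38.2 CPM in the Lyve1-negative set, 4.35-fold higher (3.62 to 5.23). Nid2, a basement membrane linker, was at 53.3 CPM in the initial set and 13.5 CPM in the Lyve1-negative set, 3.94-fold higher (2.84 to 5.44). Itga1, a collagen-receptor subunit, was at 99.3 CPM in the initial set and 17.2 CPM in the Lyve1-negative set, 5.76-fold higher (4.45 to 7.45), and Tnc, tenascin C, at 82.3 CPM in the initial set and 4.96 CPM in the Lyve1-negative set, 16.6-fold higher (11.2 to 24.97). Lower were subunits of laminin receptors: Itgb4 was at 20.2 CPM in the initial set and 88.4 CPM in the Lyve1-negative set, 4.38-fold lower (2.94 to 6.82), and Itga3 at 9.68 CPM in the initial set and 34.3 CPM in the Lyve1-negative set, 3.54-fold lower (1.99 to 6.95). Nid2 and Itga1 stood higher in the initial set in 7 of 8 suffixes. Tnc stood higher in the initial set in 5 of 8 suffixes. Without mixed barcodes, Itga3 was 2.65-fold lower. Without suffix 2, Tnc was 6.85-fold higher. Without suffix 4, Tnc was 30.1-fold higher.

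Ion channels included 5 genes higher and a single one lower. Among its 38 genes, 24 reached 20 CPM, of which 5 stood at least 3-fold higher and 1 at least 3-fold lower (5 and 1 of 24 without mixed barcodes), and the median log2 ratio was 0.40 (0.35 without mixed barcodes). Kcnj8, the pore of an ATP-sensitive potassium channel, was at 49.2 CPM in the initial set and 7.31 CPM in the Lyve1-negative set, 6.74-fold higher (4.59 to 9.92). It is also a pericyte gene. The 12 smooth muscle and pericyte markers, Kcnj8 included, summed to 119 CPM (30.6 to 361 over suffixes) in the initial set and 51.7 CPM in the Lyve1-negative set, and to 101 and 42.7 CPM in that order without mixed barcodes. Kcnj8 was the 1 of 2 markers at 20 CPM that was past 3-fold higher, and Rgs5, Cspg4 and Cnn1 had no UMI in members. The part of such cells in the Kcnj8 level was not tested.

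Piezo2, a stretch-activated channel, was at 571 CPM in the initial set and 1.79 CPM in the Lyve1-negative set, 319-fold higher (185 to 602), and its relative Piezo1 at 108 CPM in the initial set and 233 CPM in the Lyve1-negative set, 2.16-fold lower (1.81 to 2.59). Kcnn3, a calcium-activated potassium channel, was at 97.7 CPM in the initial set and 2.90 CPM in the Lyve1-negative set, 33.7-fold higher (21.1 to 56.5). Aqp1, the water channel, was at 25.02 CPM in the initial set and 7.72 CPM in the Lyve1-negative set, 3.24-fold higher (2.02 to 5.11). Panx1, a channel that releases ATP, was at 5.65 CPM in the initial set and 22.5 CPM in the Lyve1-negative set, 3.98-fold lower (1.89 to 10.1). Kcnj8 stood higher in the initial set in 7 of 8 suffixes. Aqp1 stood higher in the initial set in 4 of 8 suffixes. Panx1 stood lower in the initial set in 7 of 8 suffixes. Without mixed barcodes, Piezo2 was 853-fold higher and Panx1 17.8-fold lower (3.15 to 708). Without suffix 3, Aqp1 was 2.80-fold higher. Without suffix 4, Aqp1 was 8.72-fold higher and Panx1 6.26-fold lower. Without suffix 5, Aqp1 was 1.39-fold higher.

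Both subunits of the nitric oxide receptor stood higher, while nitric oxide synthase, cyclooxygenase 1, the prostaglandin transporter, a pair of prostanoid receptors and endothelin 1 stood lower. Of the list's 44 genes, 27 reached 20 CPM, of which 3 stood at least 3-fold higher and 7 at least 3-fold lower (3 and 9 of 25 without mixed barcodes), and the median log2 ratio was -0.43 (-0.62 without mixed barcodes). Gucy1b1, the beta subunit of soluble guanylate cyclase (ENSMUSG00000028005, protein-coding, chromosome 3, 82032006 to 82074689 on GRCm38, minus strand), was at 182 CPM (159 to 208) in initial lymphatic barcodes, against 16.7 CPM (13.8 to 19.9) in Lyve1-negative barcodes, 10.9-fold higher (8.73 to 13.7). Gucy1b1 ran from 98.4 to 277 CPM (median 168) over the suffixes in the initial set and from 9.32 to 22.6 CPM (median 17.7) in the Lyve1-negative set. Gucy1b1 was higher in the initial set in 8 of 8 suffixes, and the ranges did not overlap. Its partner Gucy1a1 was at 229 CPM in the initial set and 40.7 CPM in the Lyve1-negative set, 5.63-fold higher (4.77 to 6.65). Nos3, endothelial nitric oxide synthase, was at 48.4 CPM in the initial set and 226 CPM in the Lyve1-negative set, 4.67-fold lower (3.61 to 6.15). Ddah1, which degrades an inhibitor of the synthase, was at 40.4 CPM in the initial set and 135 CPM in the Lyve1-negative set, 3.35-fold lower (2.52 to 4.54).

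Slco2a1, the prostaglandin transporter (ENSMUSG00000032548, protein-coding, chromosome 9, 102988712 to 103096002 on GRCm38, plus strand), was at 61.3 CPM (48.3 to 76.8) in initial lymphatic barcodes, against 557 CPM (540.2 to 575) in Lyve1-negative barcodes, 9.09-fold lower (7.24 to 11.6). Slco2a1 ran from 0 to 172 CPM (median 51.7) over the suffixes in the initial set and from 478 to 621 CPM (median 559) in the Lyve1-negative set. Slco2a1 was lower in the initial set in 8 of 8 suffixes, and the ranges did not overlap. Ptgs1, cyclooxygenase 1 (ENSMUSG00000047250, protein-coding, chromosome 2, 36230426 to 36252272 on GRCm38, plus strand), was at 15.3 CPM in the initial set and 215 CPM in the Lyve1-negative set, 14.0-fold lower (8.93 to 23.3). Among receptors, Ptger4, for prostaglandin E2, was at 4.84 CPM in the initial set and 29.9 CPM in the Lyve1-negative set, 6.18-fold lower (2.79 to 17.0), and Tbxa2r, for thromboxane, at 6.46 CPM in the initial set and 40.5 CPM in the Lyve1-negative set, 6.28-fold lower (3.14 to 14.7). Edn1, the constrictor peptide endothelin 1, was at 8.07 CPM (3.87 to 14.8) in initial lymphatic barcodes, against 176 CPM (166 to 186) in Lyve1-negative barcodes, 21.8-fold lower (11.8 to 45.5). Edn1 ran from 0 to 21.3 CPM (median 4.10) over the suffixes in the initial set and from 69.6 to 250.3 CPM (median 149) in the Lyve1-negative set. Edn1 was lower in the initial set in 8 of 8 suffixes, and the ranges did not overlap. Tbxas1, thromboxane synthase, which macrophages express strongly, was at 23.4 CPM in the initial set and 4.69 CPM in the Lyve1-negative set, 4.99-fold higher (2.93 to 8.44). Ptger4 stood lower in the initial set in 7 of 8 suffixes. Tbxas1 stood higher in the initial set in 3 of 8 suffixes. Without mixed barcodes, Ddah1 was 2.87-fold lower, Ptgs1 22.8-fold lower and Tbxas1 2.15-fold lower (0.550 to 18.4). Without suffix 3, Tbxas1 was 2.00-fold higher. Without suffix 4, Ptger4 was 32.4-fold lower (5.74 to 1286). Without suffix 8, Ptger4 was 3.63-fold lower and Tbxas1 17.3-fold higher.

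Fatty-acid binding proteins had the largest ratios of the lipid genes past 3-fold, and both stood lower. Here 17 of 22 genes reached 20 CPM, of which 1 stood at least 3-fold higher and 3 at least 3-fold lower (2 and 3 of 16 without mixed barcodes), and the median log2 ratio was 0.17 (0.15 without mixed barcodes). Fabp4 (ENSMUSG00000062515, protein-coding, chromosome 3, 10204088 to 10208576 on GRCm38, minus strand) was at 221 CPM (196 to 249) in initial lymphatic barcodes, against 3334 CPM (3292 to 3376) in Lyve1-negative barcodes, 15.1-fold lower (13.4 to 17.0). Fabp4 ran from 0 to 436 CPM (median 69.8) over the suffixes in the initial set and from 1936 to 5136 CPM (median 2858) in the Lyve1-negative set. Fabp4 was lower in the initial set in 8 of 8 suffixes, and the ranges did not overlap. Fabp5 was at 3.23 CPM in the initial set and 118 CPM in the Lyve1-negative set, 36.6-fold lower (14.2 to 135). Gpihbp1, which holds lipoprotein lipase at the luminal surface of capillaries, was at 343 CPM in the initial set and 72.0 CPM in the Lyve1-negative set, 4.77-fold higher (4.18 to 5.43). Gpihbp1 ran from 102 to 563 CPM (median 269) over the suffixes in the initial set and from 43.3 to 136 CPM (median 61.4) in the Lyve1-negative set. Gpihbp1 was higher in the initial set in 8 of 8 suffixes, and the ranges overlapped. Apoe, apolipoprotein E, was at 429 CPM in the initial set and 1405 CPM in the Lyve1-negative set, 3.28-fold lower (3.00 to 3.58). Without mixed barcodes, Fabp5 was 105-fold lower (18.7 to 4136) and Apoe 6.34-fold lower. Without suffix 8, Fabp4 was 33.4-fold lower and Apoe 2.63-fold lower.

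Of the genes past 3-fold in the coagulation and fibrinolysis list, most stood lower, while the list's median was above 0. The list held 23 genes, and 18 reached 20 CPM, of which 2 stood at least 3-fold higher and 5 at least 3-fold lower (2 and 6 of 15 without mixed barcodes), and the median log2 ratio was 0.21 (-0.39 without mixed barcodes). Plat, tissue plasminogen activator, was at 148 CPM (128 to 172) in initial lymphatic barcodes, against 1741 CPM (1711 to 1772) in Lyve1-negative barcodes, 11.7-fold lower (10.1 to 13.6). Plat ran from 42.9 to 654 CPM (median 84.3) over the suffixes in the initial set and from 962 to 2468 CPM (median 1824) in the Lyve1-negative set. Plat was lower in the initial set in 8 of 8 suffixes, and the ranges did not overlap. Procr, the protein C receptor, was at 70.2 CPM in the initial set and 503 CPM in the Lyve1-negative set, 7.16-fold lower (5.79 to 8.96), and Thbd, thrombomodulin, its partner in protein C activation, at 102 CPM in the initial set and 407 CPM in the Lyve1-negative set, 4.00-fold lower (3.35 to 4.82). Vwf, von Willebrand factor, was at 4.04 CPM in the initial set and 139.7 CPM in the Lyve1-negative set, 34.6-fold lower (14.8 to 107). Serpinb9, an inhibitor of granzyme B, was at 32.3 CPM in the initial set and 212 CPM in the Lyve1-negative set, 6.58-fold lower (4.81 to 9.25). Higher were Plau, urokinase, at 34.7 CPM in the initial set and 7.31 CPM in the Lyve1-negative set, 4.75-fold higher (3.10 to 7.24), and Fgl2, a fibrinogen-like protein, at 1810.2 CPM in the initial set and 590.0 CPM in the Lyve1-negative set, 3.07-fold higher (2.91 to 3.23). Fgl2 ran from 1001 to 3473 CPM (median 1452) over the suffixes in the initial set and from 451 to 881 CPM (median 557) in the Lyve1-negative set. Fgl2 was higher in the initial set in 8 of 8 suffixes, and the ranges did not overlap. Without mixed barcodes, Procr was 14.3-fold lower. Without suffix 6, Fgl2 was 2.78-fold higher. Without suffix 8, Fgl2 was 2.57-fold higher.

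None of the antigen presentation genes stood past 3-fold higher, where 4.19% of all genes did. More genes of the list were lower without mixed barcodes than with them, as were more of all genes, at 280 of 6991 against 212 of 7216. Among its 25 genes, 17 reached 20 CPM, of which 0 stood at least 3-fold higher and 3 at least 3-fold lower (0 and 7 of 17 without mixed barcodes), and the median log2 ratio was -0.22 (-1.30 without mixed barcodes). H2-K1, a classical class I heavy chain, was at 395 CPM in the initial set and 1413 CPM in the Lyve1-negative set, 3.57-fold lower (3.26 to 3.92), and H2-Q7 at 19.4 CPM in the initial set and 202 CPM in the Lyve1-negative set, 10.4-fold lower (7.00 to 16.4); class I genes are near-identical in parts, so their split is uncertain. Nlrc5, the transactivator of class I genes, was at 6.46 CPM in the initial set and 20.5 CPM in the Lyve1-negative set, 3.18-fold lower (1.57 to 7.51). Nlrc5 was under 3-fold without suffix 3, 6 or 8, at 2.75- to 2.90-fold lower. Without mixed barcodes, H2-Q7 was 21.8-fold lower. Without suffix 2, H2-Q7 was 16.6-fold lower. Of the interferon list, Ifit2 was the gene past 3-fold, at 24.2 CPM in the initial set and 5.65 CPM in the Lyve1-negative set, 4.28-fold higher (2.58 to 7.03). Of the list's 17 genes, 12 reached 20 CPM, of which 1 stood at least 3-fold higher and 0 at least 3-fold lower (1 and 0 of 11 without mixed barcodes), and the median log2 ratio was 0.05 (-0.09 without mixed barcodes). Nlrc5 stood lower in the initial set in 7 of 8 suffixes. Ifit2 stood higher in the initial set in 7 of 8 suffixes. Without suffix 5, Ifit2 was 2.71-fold higher. In the list of Toll-like receptors and NF-kB genes none was past 3-fold, where 4.19% of all genes stood higher and 2.94% lower. Here 10 of 18 genes reached 20 CPM, of which 0 stood at least 3-fold higher and 0 at least 3-fold lower (0 and 0 of 8 without mixed barcodes), and the median log2 ratio was 0.39 (0.20 without mixed barcodes).

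Immediate early genes, which enzymatic dissociation induces, had a list median close to that of all genes. The list held 18 genes, and 18 reached 20 CPM, of which 1 stood at least 3-fold higher and 2 at least 3-fold lower (1 and 2 of 18 without mixed barcodes), and the median log2 ratio was 0.18 (0.14 without mixed barcodes). Fos was at 4972 CPM in the initial set and 1652 CPM in the Lyve1-negative set, 3.01-fold higher (2.92 to 3.10). Lower were Ier3, at 278 CPM in the initial set and 2124 CPM in the Lyve1-negative set, 7.65-fold lower (6.88 to 8.54), and Socs3, a feedback inhibitor of cytokine signalling, at 191 CPM in the initial set and 1502 CPM in the Lyve1-negative set, 7.85-fold lower (6.91 to 8.97). Among cell-cycle genes, Ccnd2, cyclin D2, was at 158 CPM in the initial set and 25.5 CPM in the Lyve1-negative set, 6.20-fold higher (5.05 to 7.62). Among its 20 genes, 7 reached 20 CPM, of which 1 stood at least 3-fold higher and 0 at least 3-fold lower (1 and 0 of 7 without mixed barcodes), and the median log2 ratio was 0.64 (0.66 without mixed barcodes). Fos stood higher in the initial set in 7 of 8 suffixes. Fos was under 3-fold without suffix 2, 3, 6 or 8, at 2.47- to 2.92-fold higher.

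**Figure D4:**
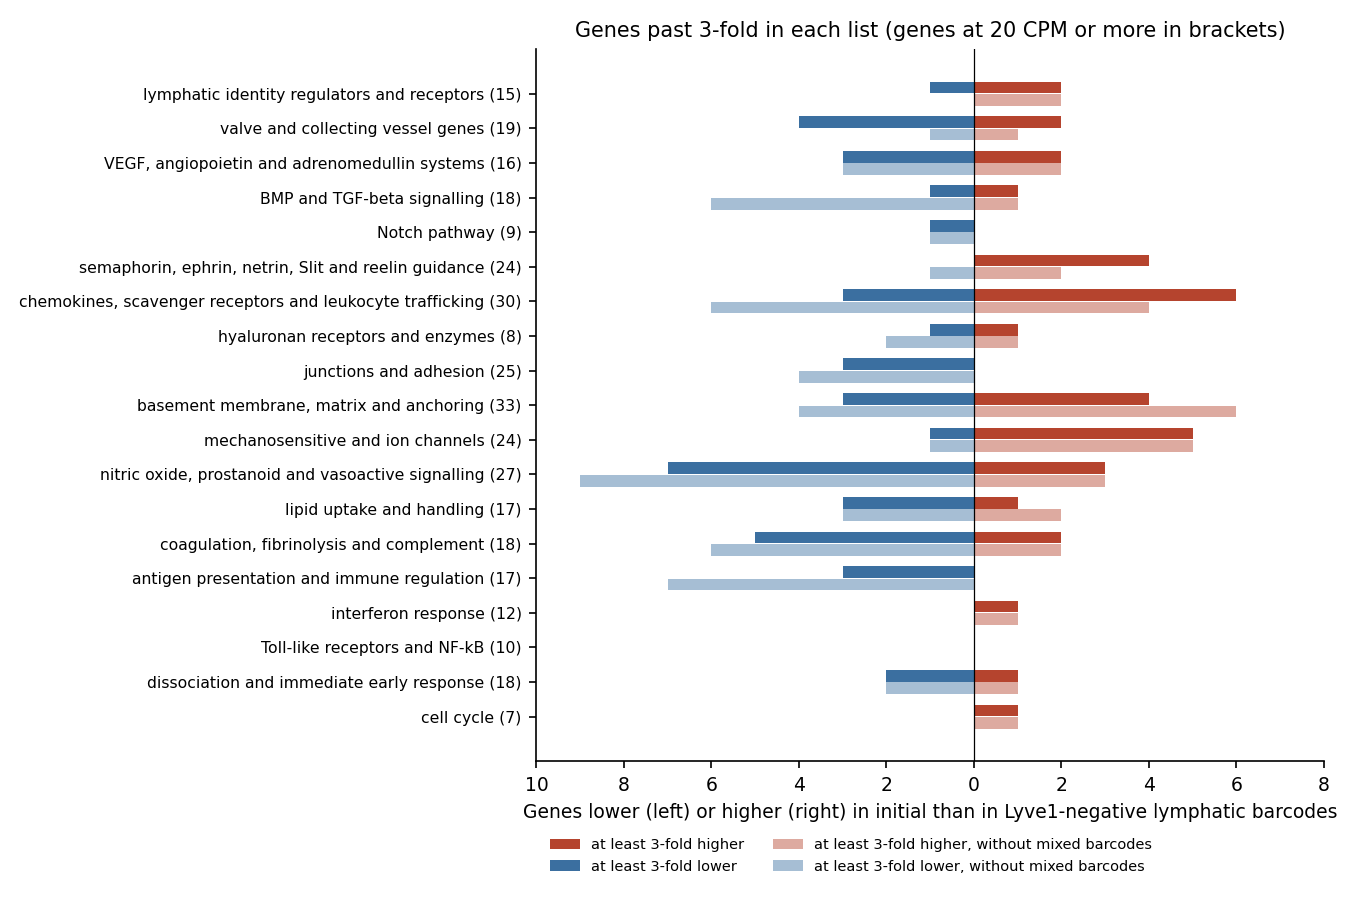
Number of genes per list at least 3-fold higher (bars to the right) or lower (bars to the left) in initial lymphatic than in Lyve1-negative lymphatic barcodes, among genes at 20 CPM or more in either set; pale bars leave out mixed barcodes. The nitric oxide, prostanoid and vasoactive list had 3 higher and 7 lower, and the mechanosensitive and ion channel list 5 higher and 1 lower.

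Outside the lists, the genes with the highest ratios included a subunit of voltage-gated sodium channels and a protein that binds such channels. Scn3a, a sodium-channel pore subunit (ENSMUSG00000057182, protein-coding, chromosome 2, 65457118 to 65567627 on GRCm38, minus strand), was at 208 CPM (184 to 235) in initial lymphatic barcodes, against 1.10 CPM (0.476 to 2.17) in Lyve1-negative barcodes, 189-fold higher (94.4 to 442). Scn3a ran from 72.4 to 315 CPM (median 208) over the suffixes in the initial set and from 0 to 6.49 CPM (median 0.358) in the Lyve1-negative set. Scn3a was higher in the initial set in 8 of 8 suffixes, and the ranges did not overlap. Fgf12, an intracellular protein that binds sodium channels, was at 155 CPM in the initial set and 2.48 CPM in the Lyve1-negative set, 62.4-fold higher (38.5 to 108).

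Apba2, an adaptor of the amyloid precursor protein (ENSMUSG00000030519, protein-coding, chromosome 7, 64501706 to 64753878 on GRCm38, plus strand), was at 148 CPM (128 to 172) in initial lymphatic barcodes, against 0.552 CPM (0.150 to 1.41) in Lyve1-negative barcodes, 269-fold higher (103 to 999). Stmn2, a microtubule regulator of neurons, was at 305 CPM in the initial set and 6.76 CPM in the Lyve1-negative set, 45.2-fold higher (33.5 to 62.1). Ablim3, an actin-binding protein, was at 183 CPM in the initial set and 4.41 CPM in the Lyve1-negative set, 41.5-fold higher (28.6 to 62.2). In the blood-type set, by contrast, Ablim3 was at 187 CPM and Stmn2 at 145 CPM, while Apba2 had no UMI there. Schwann markers summed to 16.9 CPM in the initial set and 6.07 CPM in the Lyve1-negative set, and to 9.61 and 5.46 CPM in that order without mixed barcodes.

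Membrane transporters formed another part of the 20 highest. Slco2b1, which carries organic anions, was at 152 CPM in the initial set and 4.27 CPM in the Lyve1-negative set, 35.5-fold higher (24.2 to 53.7). Slc38a4, an amino acid transporter, was at 182 CPM in the initial set and 8.55 CPM in the Lyve1-negative set, 21.2-fold higher (15.97 to 28.6). Slc9a9, an endosomal sodium-proton exchanger, was at 170.3 CPM in the initial set and 7.17 CPM in the Lyve1-negative set, 23.8-fold higher (17.5 to 32.8). Pcsk6, a proprotein convertase, was at 281 CPM in the initial set and 16.5 CPM in the Lyve1-negative set, 17.0-fold higher (13.8 to 21.1), and Dysf, the membrane-repair protein dysferlin, at 157 CPM in the initial set and 5.79 CPM in the Lyve1-negative set, 27.2-fold higher (19.4 to 38.9). Adhesion G-protein-coupled receptors were present too, with Adgrl4 at 115 CPM in the initial set and 8.55 CPM in the Lyve1-negative set, 13.5-fold higher (9.95 to 18.5) and Adgrg3 at 386 CPM in the initial set and 50.3 CPM in the Lyve1-negative set, 7.67-fold higher (6.68 to 8.81). The transcription factor Trps1 was at 295 CPM in the initial set and 32.0 CPM in the Lyve1-negative set, 9.23-fold higher (7.81 to 10.9). The remaining genes of the 20 included Etl4, Gmfg, Depp1, Dipk2a, Sorbs2 and Tril, and 18 of the 20 stood higher in the initial set in all 8 suffixes, the exceptions being Slc9a9 with 7 and Depp1 with 6. The 20 genes were picked by their summed ratio in these same barcodes, so agreement over suffixes follows in part from that choice. Several were also found in the blood-type set, with Adgrl4 at 396, Etl4 at 393, Depp1 at 468 and Sorbs2 at 210 CPM. Slco2b1, at 148 CPM, and Dysf, at 144 CPM, were near their initial levels there. Lower there were Trps1 at 74.7, Adgrg3 at 45.4, Dipk2a at 26.4 and Tril at 21.6 CPM. So were Pcsk6 at 19.3, Gmfg at 11.2 and Slc9a9 at 7.06 CPM, and Slc38a4 had no UMI. In all other barcodes, Trps1 and Slc9a9 were each at 298 CPM. Without mixed barcodes, Slco2b1 was 68.5-fold higher and Pcsk6 28.7-fold higher. Without suffix 6, Apba2 was 929-fold higher (165 to 36920). Without suffix 8, Slc9a9 was 46.0-fold higher and Dipk2a 13.7-fold higher.

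The 20 unlisted genes with the lowest ratios stood lower in the initial set in all 8 suffixes. They too were picked by their ratio in these same barcodes, so this agreement follows in part from that choice. Cmah, the enzyme that makes the sialic acid Neu5Gc (ENSMUSG00000016756, protein-coding, chromosome 13, 24327404 to 24477377 on GRCm38, plus strand), was at 58.9 CPM (46.2 to 74.1) in initial lymphatic barcodes, against 1674 CPM (1645 to 1704) in Lyve1-negative barcodes, 28.4-fold lower (22.6 to 36.3). Cmah ran from 0 to 181 CPM (median 30.0) over the suffixes in the initial set and from 543 to 2519.8 CPM (median 1594) in the Lyve1-negative set. Cmah was lower in the initial set in 8 of 8 suffixes, and the ranges did not overlap. Adamts9, a protease of versican (ENSMUSG00000030022, protein-coding, chromosome 6, 92772699 to 92943492 on GRCm38, minus strand), was at 58.1 CPM (45.5 to 73.2) in initial lymphatic barcodes, against 1388 CPM (1361 to 1415) in Lyve1-negative barcodes, 23.9-fold lower (19.0 to 30.6). Gria3, a glutamate receptor subunit, was at 7.26 CPM in the initial set and 93.3 CPM in the Lyve1-negative set, 12.9-fold lower (6.73 to 28.2), and Cpe, carboxypeptidase E, at 64.6 CPM in the initial set and 459 CPM in the Lyve1-negative set, 7.11-fold lower (5.70 to 8.99).

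Plscr1, a phospholipid scramblase, was at 6.46 CPM in the initial set and 159 CPM in the Lyve1-negative set, 24.7-fold lower (12.5 to 57.3). Dusp2, a phosphatase of MAP kinases, was at 169 CPM in the initial set and 1319.9 CPM in the Lyve1-negative set, 7.83-fold lower (6.82 to 9.02), and Lsr, a lipoprotein receptor of tricellular contacts, at 15.3 CPM in the initial set and 138 CPM in the Lyve1-negative set, 9.03-fold lower (5.75 to 15.1). Ncam2, a neural adhesion molecule, was at 2.42 CPM (0.499 to 7.08, 3 UMIs) in the initial set and 162 CPM (153 to 172) in the Lyve1-negative set. The other genes of the 20 included Parm1, Egfem1, Strip2, Car8, Palmd, Sbno2, Tmem158, Ahsg, H2-Q6, Kank1 and Ypel2, of which Egfem1, Strip2 and Ahsg had 1, 3 and 2 UMIs in all members. Without mixed barcodes, Cmah was 87.4-fold lower, Gria3 79.6-fold lower (14.2 to 3148), Plscr1 142-fold lower (25.4 to 5603), Car8 48.2-fold lower, Palmd 98.0-fold lower (17.5 to 3876) and H2-Q6 44.0-fold lower (12.1 to 364). Without suffix 4, Cmah was 44.4-fold lower and Plscr1 60.7-fold lower (20.7 to 295). Without suffix 5, Gria3 was 20.4-fold lower and Car8 26.1-fold lower. Without suffix 8, Cpe was 11.2-fold lower, Palmd 21.7-fold lower and H2-Q6 13.5-fold lower.

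Markers of other cell classes were part of the difference between the sets. Blood endothelial markers summed to less in the initial set, at 1644 CPM against 3623 CPM in the Lyve1-negative set (1913 and 3813 CPM without mixed barcodes). Of 10 such markers at 20 CPM, 2 stood past 3-fold higher and 5 lower. Of 14 macrophage markers, 11 reached 20 CPM and 8 of these stood past 3-fold higher. Summed, they came to 841 CPM in the initial set (199 to 2645 over suffixes), against 219.9 CPM in the Lyve1-negative set. Without mixed barcodes the sums were 297 and 228 CPM in the same order, and Mrc1 was the marker still past 3-fold higher. Fcgr1 was the only 1 of the 14 macrophage markers without a UMI in members.

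Fibroblast markers summed to 6215 CPM in the initial set (544 to 11984 over suffixes), against 3174 CPM in the Lyve1-negative set, and to 645 and 686 CPM in that order without mixed barcodes. Mesothelial markers summed to 599.6 CPM (0 to 3562 over suffixes) in the initial set and 35.7 CPM in the Lyve1-negative set, with 4 of 5 past 3-fold higher. Without mixed barcodes these were 8.41 and 16.4 CPM in the same order, and no marker of mesothelium reached 20 CPM. All 3 epithelial markers at 20 CPM stood past 3-fold higher, and none reached 20 CPM without mixed barcodes. Mast cell genes were a further case: Mcpt4, a chymase, was at 41.2 CPM (0 to 298 over suffixes) in the initial set and 6.76 CPM in the Lyve1-negative set, while granulocyte S100a8, S100a9 and Csf3r had no UMI in members. Over members, Mcpt4 ran from 0 to 113 UMIs per 10000 with a median of 0, and the highest member was not a mixed barcode. Mast cell genes are not among the markers that define mixed barcodes: granulocyte and mast markers summed to 66.2 CPM in the initial set and 13.1 CPM in the Lyve1-negative set, and to 93.7 and 13.1 CPM in that order without mixed barcodes. The part of these cells in the gene differences was not tested.

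Set beside blood-type endothelial barcodes, initial lymphatic barcodes carried the lymphatic regulators and were low in blood endothelial markers. Of 7627 genes at 20 CPM or more, 421 (5.52%) stood at least 3-fold higher and 537 (7.04%) at least 3-fold lower. Without mixed barcodes there were 496 higher and 677 lower of 7423, of which 350 and 485 were past 3-fold with all barcodes too. For blood-type barcodes, blood endothelial markers did not count as another class. In the identity list, 6 of 15 stood higher and none lower, and Prox1 and Mmrn1 are 2 of these by rule. Maf, a transcription factor, was at 737 CPM in the initial set and 39.4 CPM in the blood-type set, 18.7-fold higher (15.3 to 23.1), and Flt4 at 569.8 CPM in the initial set and 18.2 CPM in the blood-type set, 31.3-fold higher (23.4 to 42.7). In the list of blood endothelial markers, 11 of 15 stood lower and none higher, with and without mixed barcodes. Sox17, an arterial transcription factor, had no UMI in members, at least 134-fold lower than the 324 CPM of the blood-type set. Plvap, the diaphragm protein of fenestrated capillaries and venules, was at 76.7 CPM in the initial set and 683 CPM in the blood-type set, 8.91-fold lower (7.25 to 11.1). Without mixed barcodes, Maf was 68.6-fold higher.

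The semaphorins Sema3a and Sema3d stood higher than in blood-type endothelium but lower than in Lyve1-negative lymphatic barcodes. In the guidance list 7 of 28 genes stood higher than in the blood-type set and 6 lower, and in the chemokine list 8 and 10 of 33. Sema3d was at 552 CPM in the initial set and 12.3 CPM in the blood-type set, 44.99-fold higher (31.7 to 65.9), and Sema3a at 229 CPM in the initial set and 2.23 CPM in the blood-type set, 103-fold higher (46.6 to 282). Il7 was at 148 CPM in the initial set and 2.60 CPM in the blood-type set, 57.1-fold higher (27.1 to 144). F8, coagulation factor VIII, was at 84.7 CPM in the initial set and 5.21 CPM in the blood-type set, 16.3-fold higher (9.28 to 30.8). Stab1, a scavenger receptor, was at 415 CPM in the initial set and 36.4 CPM in the blood-type set, 11.4-fold higher (9.16 to 14.3). Lower were the junction genes Jam2, at 0.807 CPM in the initial set and 300.1 CPM in the blood-type set, 372-fold lower (66.5 to 14704), with 1 UMI in members, and Esam, at 25.8 CPM in the initial set and 439 CPM in the blood-type set, 17.0-fold lower (12.0 to 24.98). Fabp4 was at 221 CPM in the initial set and 16668 CPM in the blood-type set, 75.4-fold lower (66.9 to 85.2), so the initial set was low in this gene against both endothelial sets. Without mixed barcodes, Sema3d was 139.9-fold higher.

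Against all other barcodes, most of which were not endothelial, 585 of 7831 genes (7.47%) stood at least 3-fold higher and 870 (11.1%) at least 3-fold lower. Without mixed barcodes there were 710 higher and 1185 lower of 7929, of which 574 and 865 were past 3-fold with all barcodes too. In this comparison mixed barcodes were left out of the initial set only, and the set of all other barcodes was kept whole. Pan-endothelial genes stood higher for 9 of 10, and 11 of 15 identity genes stood higher with 1 lower, where Prox1 and Mmrn1 were fixed by the rule. Apold1, an endothelial early-response gene, was at 2068 CPM in the initial set and 44.7 CPM in the set of all other barcodes, 46.2-fold higher (44.2 to 48.3). Cavin2, a coat protein of caveolae, was at 2099 CPM in the initial set and 189 CPM in the set of all other barcodes, 11.1-fold higher (10.7 to 11.5), and Timp3, an inhibitor of metalloproteinases, at 3118 CPM in the initial set and 371 CPM in the set of all other barcodes, 8.41-fold higher (8.14 to 8.69). Gpihbp1 was at 343 CPM in the initial set and 8.69 CPM in the set of all other barcodes, 39.5-fold higher (35.4 to 43.9). Class II antigen presentation genes stood lower, with Cd74, the invariant chain, at 408 CPM in the initial set and 3473 CPM in the set of all other barcodes, 8.50-fold lower (7.79 to 9.30) and H2-Aa at 113 CPM in the initial set and 1129.5 CPM in the set of all other barcodes, 10.0-fold lower (8.47 to 11.9). Without mixed barcodes, Cd74 was 28.9-fold lower and H2-Aa 36.1-fold lower.

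In the 564 barcodes with Prox1 and Mmrn1, several genes had summed levels at 2 to 9 Lyve1 UMIs between those of the outer bins. With 0, 1, 2 to 9 and at least 10 Lyve1 UMIs there were 431, 32, 20 and 81 barcodes, of which 35, 6, 10 and 19 were mixed, with median depths of 10484, 15328, 13692 and 13629 UMIs. Members were 7 of those with 2 to 9 Lyve1 UMIs and 72 of those with at least 10. Ptprc was at 2 or more UMIs in 9, 2, 7 and 9 barcodes. The bin with 2 to 9 thus sums members with other barcodes. Members held at least 5 Ccl21a UMIs, while 6 barcodes that failed on Ccl21a alone, with 2 to 6 Lyve1 UMIs, held none. A level between those of the outer bins therefore need not be the level of any single barcode. Reln was at 47.6, 52.9, 376 and 1573 CPM in the order of the bins, and Ccl21a at 33.0, 151, 1132 and 7415 CPM. Tgfb2 was at 19.9, 44.3, 49.5 and 298 CPM and Angpt2 at 18.2, 11.1, 33.9 and 337 CPM. These genes were low in the first 2 bins and highest in the last.

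Fabp4, Ptgs1, Ackr4, Foxp2 and Cmah ran the other way. Fabp4 was at 3334, 3390.3, 1455 and 280.4 CPM, Ptgs1 at 215, 238, 130.4 and 20.9 CPM and Ackr4 at 305, 209, 162 and 19.5 CPM, while the other scavenger, Ackr2, was at 1.93, 0, 0 and 82.9 CPM. Foxp2 was at 945, 783, 733 and 259 CPM and Cmah at 1674, 1464, 436 and 117 CPM. Prox1 differed less, at 1029, 1082, 1160.5 and 729 CPM. The bins with 1 and with 2 to 9 Lyve1 UMIs hold few barcodes. Without mixed barcodes, those with 2 to 9 had Reln at 535 CPM, Angpt2 at 51.2 CPM and Fabp4 at 1445 CPM. In the last bin, Ptgs1 was then at 11.5 CPM.

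**Figure D5:**
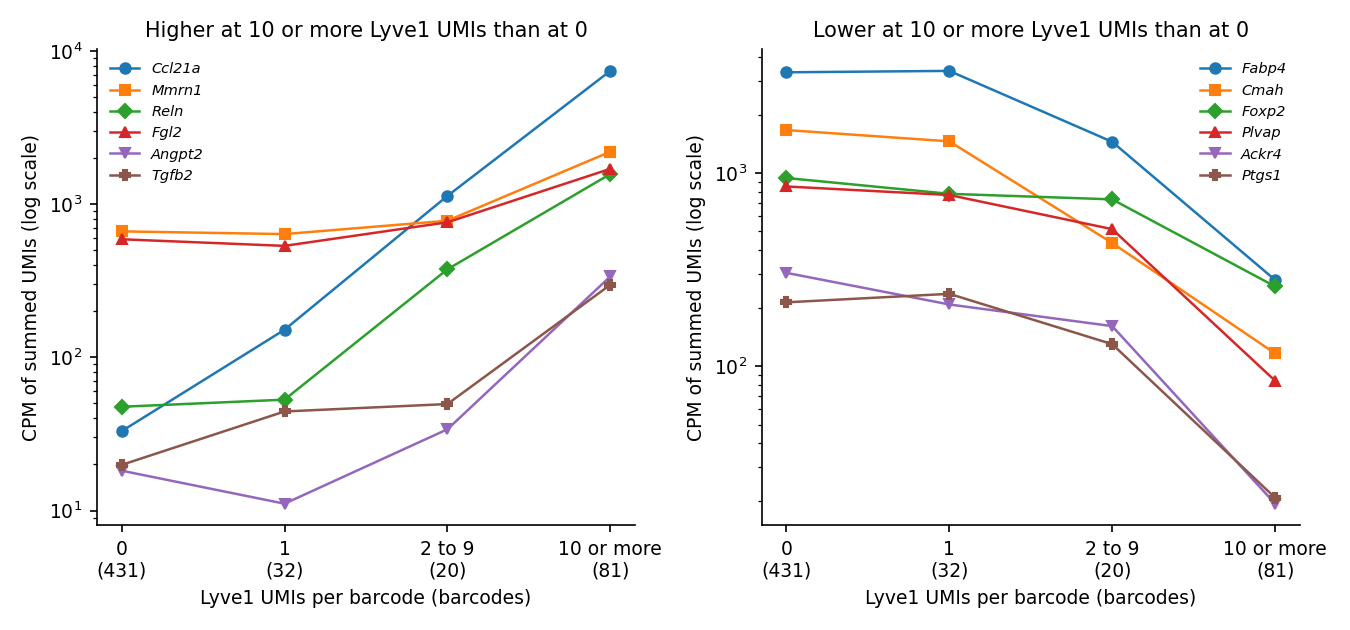
Level in CPM on a log axis of 12 genes over barcodes with Prox1 and Mmrn1 grouped by 0, 1, 2 to 9 or at least 10 Lyve1 UMIs (431, 32, 20 and 81 barcodes), with 6 genes that stood higher (left) and 6 that stood lower (right) in the initial set. Reln reaches 1573 CPM in the last bin and Fabp4 280.4 CPM.

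Among the 79 members, variation was led by neurotensin and by genes of mixed barcodes. The variance-to-mean ratio of counts thinned to 2000 UMIs per barcode had a median of 1.30 over 681 genes. Nts, the neuropeptide neurotensin, which lymphatic endothelial cells are known to express, had a ratio of 25.4 and ran from 0 to 410 UMIs per 10000 with a median of 7.28. Summed, Nts was at 2565 CPM in the initial set and 3236 CPM in the Lyve1-negative set, and the highest single member lay far above the median member. Gsn, Cd74, Dcn, Cxcl2, Col3a1 and Mt1 were also among the 10 most variable, with ratios of 10.6 to 18.8, and had ratios of 0.810 to 1.82 without mixed barcodes.

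Without mixed barcodes, Nts stayed first at 26.6, followed by Malat1 at 15.3, Gm42418 at 12.1, Ccl21a at 9.44 and Atf3 and Fos, immediate early genes, at 7.79 and 7.101. Ccl21a ran from 7.06 to 316 UMIs per 10000 over all members, with a median of 92.5. Lyve1 had a ratio of 4.29 (1.19 to 107 per 10000, median 43.9). Reln had a ratio of 2.15, from 0 to 68.7 per 10000 with a median of 18.4.

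Shares of barcodes gave the same order when depth was made equal. All 79 members and 419 of 431 Lyve1-negative barcodes were thinned to 2000 UMIs, and shares in B-cell marker barcodes (265, median 5587 UMIs) serve as a cell type that should lack these genes. Reln was detected in 98.7% of members and 20.9% of Lyve1-negative barcodes, against 3.02% of B-cell barcodes, and in 97.5% and 6.92% in the same order after thinning. Ackr2 was detected in 49.4% of members (37.9 to 60.9) and 2.78% of Lyve1-negative barcodes, with 0.377% of B-cell barcodes, and in 13.9% and 0.716% after thinning.

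Scn3a was detected in 73.4% of members and 0.928% of Lyve1-negative barcodes (31.6% and 0.239% after thinning), and Apba2 in 75.9% and 0.464% (22.8% and 0.239%). Both genes were picked by their ratio in these barcodes and by detection in at least 25% of members. Their shares thus follow in part from that choice. Gucy1b1 was detected in 82.3% and 19.7% in the same order, or 32.9% and 2.86% after thinning. For genes that stood lower, Ackr4 was detected in 3.80% of members and 71.2% of Lyve1-negative barcodes, against 3.02% of B-cell barcodes, so the share in members is read as background. Edn1 was detected in 6.33% of members and 41.1% of Lyve1-negative barcodes, and Slco2a1 in 27.8% and 88.4%. Fabp4 was detected in 31.6% of members and 88.6% of Lyve1-negative barcodes, with 11.3% of B-cell barcodes, and in 20.3% and 83.5% after thinning.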

How the data were processed

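UMI counts per gene and barcode were deposited by the authors as a single matrix of all libraries, per the file headers with 12 multiplexing tags beside the genes; Cell Ranger 7.1.0, the build mm10 and Seurat 4.3.0.1 (role not given) are listed per the submitters' processing notes, while the annotation and the counting strand are not given in the sources used here. Gene positions were looked up by gene ID in GENCODE M21 on GRCm38. Members and gene lists were chosen with earlier results of these data known. Counts of each barcode set were summed and scaled to CPM. Genes at 20 CPM or more in either set were counted as past 3-fold at a ratio of at least 3, or its inverse. No test was possible with 1 pooled sample. Named genes were the rule's genes and Reln, listed genes past 3-fold or needed for their role, and the 20 highest and 20 lowest unlisted ratios after adding 10 CPM, detected in at least 25% of barcodes of the higher set, leaving out Gm, Rik, mitochondrial and ribosomal genes; and the 10 genes with the highest variance-to-mean ratio. Doublets were called, but not removed, with Scrublet in scanpy 1.11.5 (expected 6%, 2 simulated per barcode, 30 components) within suffixes 1 to 4 and 5 to 8, which marked 719 of 23666 barcodes (3.04%). Shares were thinned to 2000 UMIs with a fixed seed. Python 3.11.15, numpy 2.4.6, scipy 1.17.1, pandas 2.3.3 and matplotlib 3.10.9 were used, and the calculations were tested on simulated data. Alternatives were other thresholds, minimum levels, folds and scalings, and each suffix left out. Leaving out mixed barcodes was chosen after seeing the data. Some genes that the naming rule covers are not reported here.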

Additional observations from a re-analysis of the deposited data

Results flagged for a closer look

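In 38 sets of 8 suffix values, the highest or lowest value was compared with the others by Dixon's ratio, whose 95% critical value chance passes in about 1 of 20 sets, and 4 passed. Suffix 8 held 28 initial lymphatic barcodes, 0.871% of its filtered barcodes, far above the median of 0.269% over suffixes. Gpihbp1 stood at 136 CPM in the Lyve1-negative barcodes of suffix 4, against a median of 61.4 CPM over suffixes. Ackr4 stood at 10.2 CPM in the initial lymphatic barcodes of suffix 3, which is 1 UMI in 4 barcodes, against a median of 0. Plat stood at 654 CPM in the same 4 barcodes, from 64 UMIs, against a median of 84.3 CPM. What sets these suffixes apart was not tested.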

How the results depend on the processing

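The number of initial lymphatic barcodes ran from 51 (without suffix 8) to 75 with each suffix left out in turn. Against Lyve1-negative barcodes, 651 genes stood higher and 442 lower at 2-fold, 158 and 100 at 5-fold, and 158 and 156 at a minimum of 50 CPM, where 50.3% of calls were higher. With no minimum beyond 3 UMIs in either set, 1973 stood higher and 447 lower, which moved the share of higher calls to 81.5%, against 58.8% at 20 CPM. It was 47.5% without mixed barcodes. With each suffix left out, 287 to 437 stood higher and 208 to 233 lower. Against all other barcodes, 947 stood higher and 1272 lower at 2-fold, 378 and 471 at 5-fold, 444 and 487 at 50 CPM, and 8884 and 1734 with no minimum, where 83.7% were higher against 40.2% at 20 CPM. Against blood-type endothelial barcodes, 788 stood higher and 869 lower at 2-fold, 225 and 349 at 5-fold, 271 and 313 at 50 CPM, and 1095 and 1112 with no minimum. Of 120 named genes, 3 reversed the direction of their ratio over Lyve1-negative barcodes under an alternative. The others kept it wherever a ratio could be had, and Sema3e had none without mixed barcodes, where it was at or under the floor. Without mixed barcodes the log2 ratio was -2.34 for Cxcl10, -1.38 for Sema3c and -1.10 for Tbxas1. For Tbxas1 it was also -1.09 with Ptprc at 0 and -1.33 with called doublets left out, and the cause was not tested. Ratios of named genes lay outside their counting interval for 42 genes, beside those 3, without mixed barcodes, for 42 when averaged over barcodes and for 27 without suffix 8. No paired analysis was possible because the result comes from no test and barcodes carry no replicate number of the labels. Genes with 3 or fewer UMIs in members, such as Ackr4 and Flt1, have wide ratio intervals, so depth limits how low they can be said to be.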
